A study of Mus musculus with 6 samples.

Results

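The genes described here encode histones and the proteins that drive the cell cycle and copy DNA. They were chosen by gene symbol from the longer of the authors' tables: clustered histone genes (Hist followed by the cluster number), replacement and linker histone genes (H2af, H3f3 and H1f), cyclins A, B, D and E, the kinases Cdk1, Cdk2, Cdk4 and Cdk6, the helicase subunits Mcm2 to Mcm7, and Top2a, Mki67, Pcna, Rrm1 and Rrm2. The rule found 41 genes among the 13192 listed. The study compared ribosome-bound RNA between mouse cortex in which Rheb, the GTPase upstream of the growth kinase mTORC1, had been targeted and Control cortex. The 3 Rheb cKO libraries carried floxed Rheb alleles on both chromosomes, 1 copy of the Ribo-HA allele and Syn-Cre. By its name, this Cre recombinase is driven by a promoter of synapsin, a neuronal gene; the genotype field speaks of knockdown of Rheb. The 3 Control libraries carried the same floxed alleles and the Ribo-HA allele, with no Cre named in their titles. Cortex of both groups was taken at postnatal day 25, and RNA was pulled down from the lysate with an anti-HA antibody. Whether Control ribosomes carried the tag without a named Cre, and whether each library is a separate animal, is not given in the sources used here.

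Histones package DNA into nucleosomes, each built around pairs of H2A, H2B, H3 and H4, with a linker histone H1 where DNA enters and leaves. Most clustered histone genes are replication-dependent: they are transcribed in S phase, lack introns, and their main mRNAs end in a short hairpin, the histone stem-loop, in place of a poly(A) tail. Replacement histones such as those of H3f3a, H3f3b and H2afz are made throughout the cell cycle from polyadenylated mRNAs and supply neurons, which no longer divide. In the postnatal cortex the cells that still divide are mainly glial precursors and, to a lesser extent, vascular and immune cells. Cyclins switch on cyclin-dependent kinases: D cyclins with Cdk4 act in G1, cyclin E at entry into S phase, cyclin A during DNA synthesis and Cdk1 at mitosis. The Mcm proteins form the ring that unwinds DNA at the replication fork.

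Each gene has 1 FPKM value (fragment counts scaled for gene length and sequencing depth) per group, already combined over its libraries, so no spread between libraries and no depth per library is known here. A gene is called below where the q-value of the authors' Cuffdiff test was under 0.05, and each log2 fold change sets Rheb cKO over Control. The members are part of their families: of 109 protein-coding genes that GENCODE M21 names within the rule, 40 were listed, and of its 67 clustered histone genes 11 were. The remaining member, Hist1h2al, is a processed pseudogene in that annotation. Mki67, Ccne2, Cdk2, Cdk6 and the B cyclin genes Ccnb1, Ccnb2 and Ccnb3 were not among the listed genes, so no values of them were analysed here. The Rheb gene itself stood at 9.20 FPKM in Rheb cKO and 22.7 FPKM in Control (log2 fold change -1.30, q = 0.00161, Cuffdiff, in the authors' deposited table). Over all listed genes the median log2 fold change was 0.03.

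Of the 41 genes, 5 fell in Rheb cKO and 0 rose by the authors' Cuffdiff test: the clustered histone genes Hist1h2bc, Hist1h1c, Hist1h4i and Hist1h2be, and the mitotic DNA topoisomerase gene Top2a. The 5 that fell are 12.2% of the members. Of all listed genes 8.72% were called, 4.58% lower and 4.14% higher in Rheb cKO. In such pulled-down RNA, fewer cells of a type, less RNA per cell and a different pull-down between the groups cannot be told apart. Whether Control ribosomes carried the tag is not given. In the same comparison all 15 oligodendrocyte markers and 4 of 12 markers of oligodendrocyte precursors fell (list medians of -1.66 and -0.13 on the log2 scale), and their part in these calls was not tested. At a q under 0.01, 4 members were called, all lower, beside 4.71% of all genes, 2.77% lower and 1.94% higher. At an unadjusted p under 0.05, Cuffdiff had 10 members lower and 2 higher, beside 9.73% and 11.5% of all genes. A fold below 0 was found for 27 of the 41 members, 65.9%, beside 45.4% of all genes with a finite fold. The median log2 fold change was -0.13 over the members. The subgroups did not move alike, with medians of -0.74 for the clustered histone genes, -0.51 for the kinases, -0.30 for the MCM subunits, 0.07 for the replacement and linker histone genes and 0.29 for the DNA synthesis and proliferation genes. Of the 17 members with a mean FPKM under 5, 14 had a fold below 0, and 13 of the 24 at 5 FPKM or more did. Of the 13 members with a mean FPKM of 1 to under 5, 2 were called lower, beside 4.26% of all genes at that level, and of the 4 members under 1 FPKM 1 was, beside 3.35% of all genes there.

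**Figure D1:**
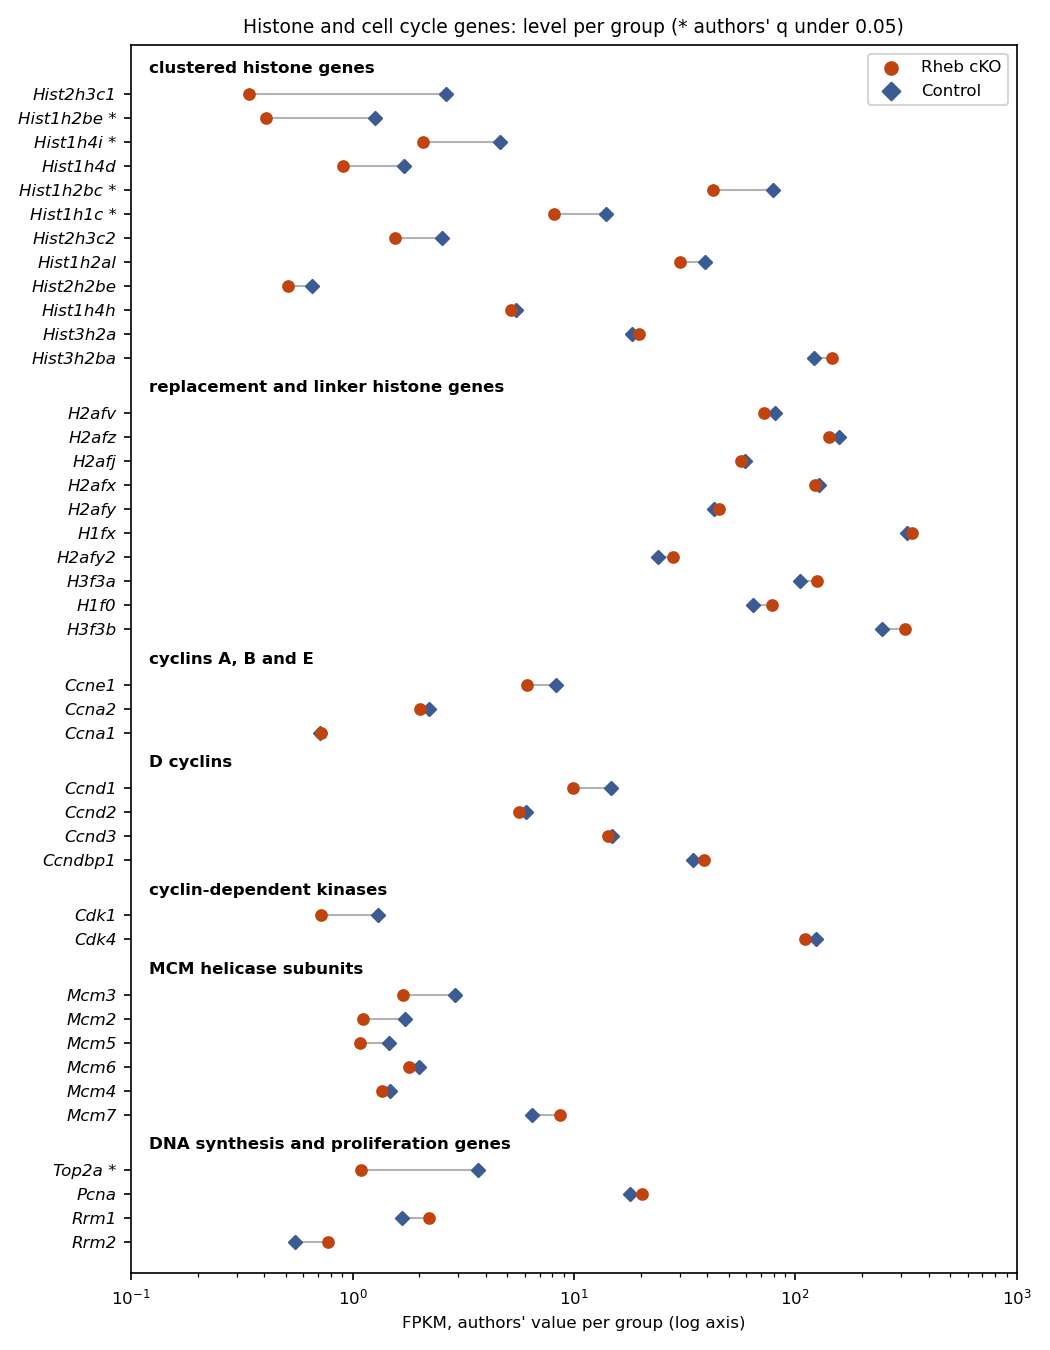
FPKM of the 41 genes on a log axis, with 1 circle for Rheb cKO and 1 diamond for Control per gene, both the authors' pooled values, and a star at genes called at a q under 0.05. Replacement and linker histone genes lie between 28.1 and 336 FPKM in Rheb cKO and between 24.0 and 319 FPKM in Control, while the MCM subunits stay at or under 8.66 FPKM in both groups.

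Clustered histone genes that hold the histone stem-loop in an annotated transcript are shown first, since the hairpin is the feature that sets their mRNAs apart. The search asked for a stem of 6 base pairs around a loop of 4 bases, with the letters that histone hairpins share, in the transcripts of GENCODE M21 (mm10). It found the hairpin in 10 of the 22 histone genes and in 0.105% of the 12365 listed protein-coding genes, that is 13 genes: 10 members, Trim17, whose exons overlap Hist3h2a on the same strand, Nova2 and Syncrip. The hairpins of 3 genes that fell, of both Hist3 genes and of H2afx are printed below, each with 5 bases on either side; capitals mark the 16 bases of the hairpin.
Hist1h1c, chr13:23739507-23739532, plus strand: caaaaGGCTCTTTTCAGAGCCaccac
Hist1h2be, chr13:23585526-23585551, minus strand: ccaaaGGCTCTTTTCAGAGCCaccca
Hist1h4i, chr13:22040961-22040986, minus strand: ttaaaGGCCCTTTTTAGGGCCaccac
Hist3h2a, chr11:58955167-58955192, plus strand: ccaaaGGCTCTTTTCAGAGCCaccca
Hist3h2ba, chr11:58949344-58949369, plus strand: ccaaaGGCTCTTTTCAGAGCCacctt
H2afx, chr9:44335235-44335260, plus strand: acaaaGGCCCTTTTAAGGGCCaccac
The hairpin of Hist1h1c and Hist1h2be has the same letters as that of the Hist3 genes, and Hist1h4i and H2afx differ from it in the stem and the loop. It starts between 24 and 46 bases after the stop codon in the 10 genes. Every one of these annotated transcripts runs on past the hairpin, by 46 bases in Hist1h4h and up to 1861 bases in Hist1h2be, and 8 of the 10 have the poly(A) signal AATAAA or ATTAAA in their last 40 bases. Per the labels' protocols the kit was one for stranded mRNA libraries, a kind that selects polyadenylated RNA, so the values of these genes cover whatever transcripts carried a poly(A) tail. In Hist1h4d 25 of the 770 bases after the hairpin lie within the authors' locus.

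**Figure D2:**
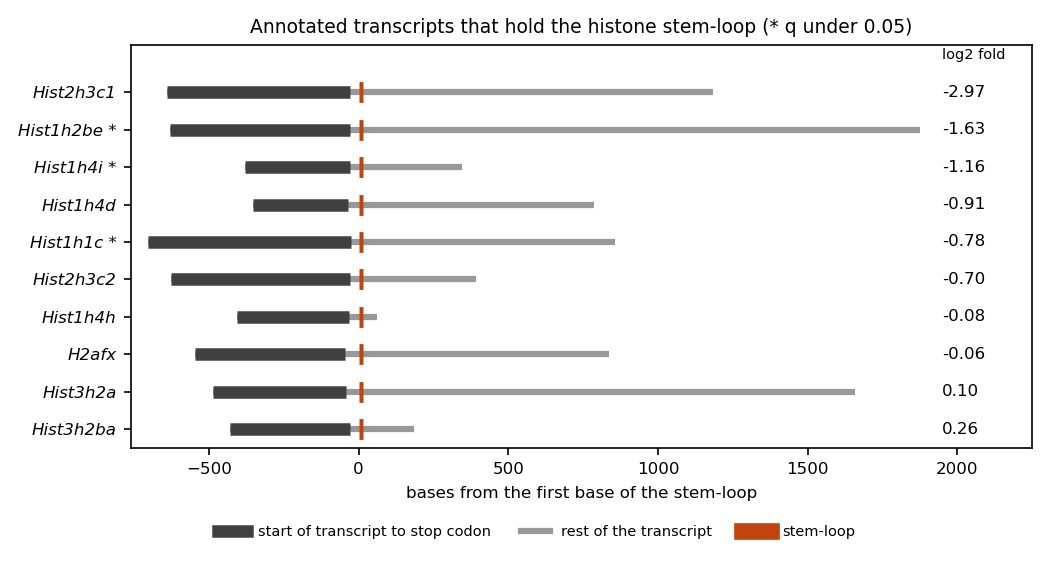
Transcripts of the 10 histone genes with a stem-loop, aligned at the first base of the hairpin, in bases; the dark bar runs from the transcript start to the stop codon (introns removed) and the deposited log2 fold change stands at the right. All of these annotated transcripts extend past the hairpin, from 46 to 1861 bases, and folds run from -2.97 to 0.26.

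Of 7 listed genes with a Hist1 symbol 4 fell in Rheb cKO by Cuffdiff, beside 4.58% of all listed genes. Of 3 Hist2 and 2 Hist3 genes 0 were called, beside 8.72% of all listed genes. At an unadjusted p under 0.05 there were 0 of these as well, beside 21.2% of all genes. With so few genes, 0 calls does not set these clusters apart. Hist1h2bc, an H2B gene and the most abundant Hist1 member, had 42.5 FPKM in Rheb cKO, against 79.4 FPKM in Control (log2 fold change -0.90, q = 0.00161, Cuffdiff, in the authors' deposited table). Hist1h1c, which encodes a linker histone H1, had 8.17 FPKM in Rheb cKO and 14.0 FPKM in Control (-0.78 on the log2 scale, q = 0.00291, Cuffdiff, in the authors' deposited table). Both genes kept more than 50% of the Control level, at 53.5% for Hist1h2bc and 58.3% for Hist1h1c. Hist1h4i, an H4 gene, stood at 2.08 FPKM in Rheb cKO and 4.65 FPKM in Control (log2 fold change -1.16, q = 0.0189, Cuffdiff, in the authors' deposited table). Hist1h2be, another H2B gene, had 0.406 FPKM in Rheb cKO and 1.26 FPKM in Control (-1.63, q = 0.00161, Cuffdiff, in the authors' deposited table). In mm10 these genes lie on chromosome 13: Hist1h4i from 22040636 to 22041362 and Hist1h2be from 23583670 to 23621124 on the minus strand, Hist1h2bc from 23684199 to 23692908 and Hist1h1c from 23738808 to 23740367 on the plus strand.

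The other clustered genes did not pass the test. Hist1h4d had a log2 fold change of -0.91 (q = 0.592) and Hist1h4h of -0.08 (q = 0.951), both H4 genes, in the authors' deposited table (Cuffdiff). The pseudogene Hist1h2al stood at 30.0 FPKM in Rheb cKO and 38.9 FPKM in Control (q = 0.417, Cuffdiff, in the authors' deposited table). That pseudogene lies from 51202727 to 51203065 on chromosome 13, outside the span of the other listed Hist1 genes. All 7 members with a Hist1 symbol, Hist1h2al included, had a fold below 0, beside 45.4% of all genes with a finite fold. Of these 7, 4 were called lower, beside 4.58% of all listed genes. From the Hist2 cluster on chromosome 3, Hist2h3c1 and Hist2h3c2 encode H3, and Hist2h2be encodes H2B. Their folds were -2.97, -0.70 and -0.36, at levels of at most 2.65 FPKM in either group. By Cuffdiff 0 of the 3 were called in the authors' deposited table, beside 8.72% of all genes. At an unadjusted p under 0.05 there were 0 as well, beside 21.2% of all genes. Hist2h3c1 had the lowest fold of all 41 members and a q of 0.546 (Cuffdiff, in the authors' deposited table). Its level was 0.340 FPKM in Rheb cKO and 2.65 FPKM in Control.

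From the Hist3 cluster on chromosome 11, Hist3h2ba, which encodes H2B, had 146 FPKM in Rheb cKO and 122 FPKM in Control (log2 fold change 0.26, q = 0.288, Cuffdiff, in the authors' deposited table). Hist3h2a, which encodes H2A, had 19.7 FPKM in Rheb cKO and 18.3 FPKM in Control (0.10, q = 0.770, Cuffdiff, in the authors' deposited table). These were the clustered genes with a fold above 0. The difference between the clusters was not tested. Among the 22 histone genes, the 10 with a stem-loop had a median log2 fold change of -0.74 and ranged from -2.97 to 0.26, and the 12 without one had a median of 0.00 and ranged from -0.90 to 0.35. This split largely follows that into clustered genes and replacement or linker genes. The clustered genes without the hairpin, Hist1h2bc, Hist1h2al and Hist2h2be, had folds of -0.90, -0.37 and -0.36. The replacement gene with it, H2afx, had -0.06. Levels differed as well. Median FPKM for genes with the hairpin was 3.64 in Rheb cKO and 5.08 in Control. For those without, the median was 64.3 in Rheb cKO and 71.9 in Control. Of the 10 genes with the hairpin 3 fell (Hist1h1c, Hist1h2be and Hist1h4i) and 8 had a fold below 0. Of the 12 without it 1 fell (Hist1h2bc) and 6 had a fold below 0, near the shares over all genes. Those shares were 4.58% called lower and 45.4% with a fold below 0. The difference between genes with and without the hairpin was not tested.

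Histone genes share sequence, which limits single values. The share of a gene's 50-base stretches also present in a transcript of another gene was 100% for Hist2h3c1, whose exons overlap Gm20634, 63.5% for Hist2h3c2 and 67.6% for Hist1h2al. It was 30.6% for Hist1h2bc, 28.9% for Hist1h4i, 16.3% for Hist1h2be and 8.54% for Hist1h1c. Genes that were not called also shared sequence, with 45.8% for Hist1h4h, 35.4% for H2afz and 31.5% for Hist3h2a, while Hist2h2be had 0%. The authors' loci of Hist3h2a and H1fx, at 23366 and 64850 bases, exceed their longest annotated transcripts of 2146 and 1217 bases. Exons of H1fx overlap those of Gm47286 on the same strand. Exons of Hist1h2be overlap those of Hist1h1e and Gm11398 on the same strand. How fragments shared between copies were assigned is not given in the sources used here.

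**Figure D3:**
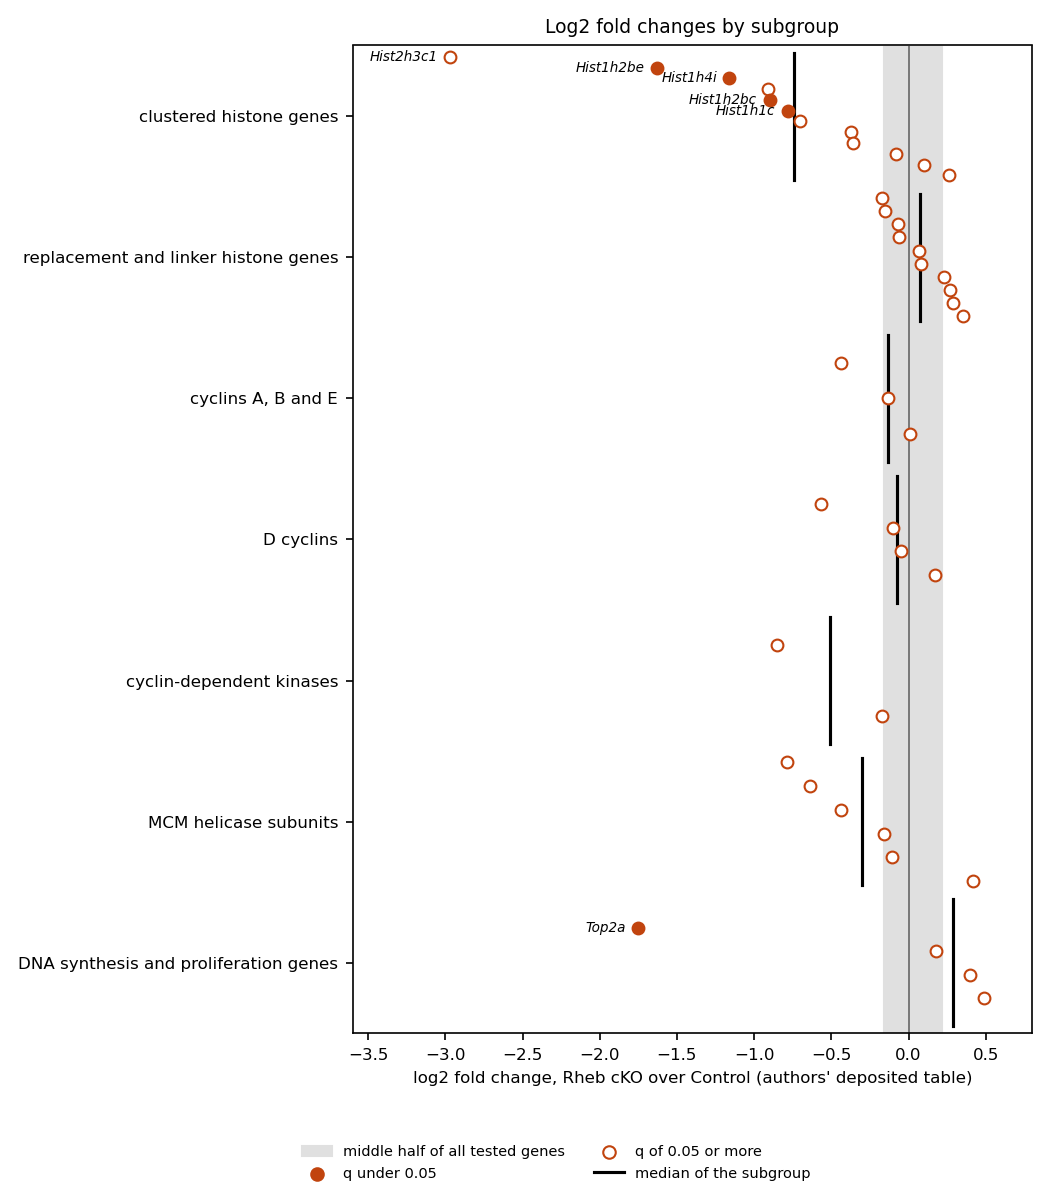
Deposited log2 fold change, Rheb cKO over Control, of each gene by subgroup; filled points have a q under 0.05, bars are subgroup medians, and the grey band runs between the quartiles of all listed genes (-0.16 to 0.22). The called genes run from -0.78 (Hist1h1c) to -1.75 (Top2a), while the replacement and linker histone genes lie between -0.17 and 0.35.

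Replacement and linker histone genes were at high levels. By Cuffdiff 0 of the 10 were called, beside 8.72% of all listed genes. At an unadjusted p under 0.05 there was 1, higher, beside 11.5% of all genes. H1fx, a linker histone gene and the most abundant member of all, had 336 FPKM in Rheb cKO and 319 FPKM in Control (log2 fold change 0.08, q = 0.918, Cuffdiff, in the authors' deposited table). H3f3b stood at 313 FPKM in Rheb cKO and 246 FPKM in Control (0.35, q = 0.284, Cuffdiff, in the authors' deposited table). H3f3a, which encodes the same replacement H3 protein, had 126 FPKM in Rheb cKO and 105 FPKM in Control (0.27, q = 0.499, Cuffdiff, in the authors' deposited table). Both H3f3 genes had a fold above 0, though neither passed the test. H1f0, the linker histone gene of resting and differentiated cells, had 78.5 FPKM in Rheb cKO and 64.3 FPKM in Control; its unadjusted p was 0.0176 and its q 0.125 (log2 fold change 0.29, Cuffdiff, in the authors' deposited table).

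The H2A replacement genes stayed within a narrow range of folds. H2afz, whose product marks nucleosomes at gene starts, had 142 FPKM in Rheb cKO and 158 FPKM in Control (log2 fold change -0.15, q = 0.768, Cuffdiff, in the authors' deposited table). H2afv, which encodes its close relative, had the lowest fold of this subgroup, at -0.17 (q = 0.670, Cuffdiff, in the authors' deposited table), with 71.9 FPKM in Rheb cKO and 80.9 FPKM in Control. H2afx, whose product is phosphorylated at DNA breaks, had 123 FPKM in Rheb cKO and 128 FPKM in Control. The folds of H2afx (-0.06) and H2afj (-0.07) were below 0, and those of the macroH2A genes H2afy (0.07) and H2afy2 (0.23) above it, with q from 0.371 to 0.882 (Cuffdiff, in the authors' deposited table). H2afx is the member of this subgroup with a stem-loop. A q above the threshold does not show that these levels were equal, since no interval can be computed from pooled values.

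H2B and H4, the families with clustered genes alone among those listed, had a different make-up in the groups. In H1, H2A and H3 the replacement or linker genes made up most of the summed FPKM. FPKM are per length, so levels can be summed over the listed genes of a family. Among H2B genes, Hist3h2ba made up 77.1% of the summed FPKM in Rheb cKO and 59.9% in Control, and Hist1h2bc 22.4% in Rheb cKO and 39.1% in Control. The ratio of Hist3h2ba to Hist1h2bc was 3.43 in Rheb cKO and 1.53 in Control. The H2B total itself was 189 FPKM in Rheb cKO and 203 FPKM in Control. Among H4 genes, at 8.19 FPKM in all in Rheb cKO and 11.9 FPKM in Control, Hist1h4h made up 63.5% in Rheb cKO and 46.4% in Control. For H2A the clustered genes made up 9.62% in Rheb cKO and 10.4% in Control. For H3 the clustered genes made up 0.432% in Rheb cKO and 1.46% in Control, and for H1 the clustered gene Hist1h1c made up 1.93% in Rheb cKO and 3.53% in Control. These shares rest on 1 pooled value per gene and have no test. Histone genes outside the table are not in the sums.

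**Figure D4:**
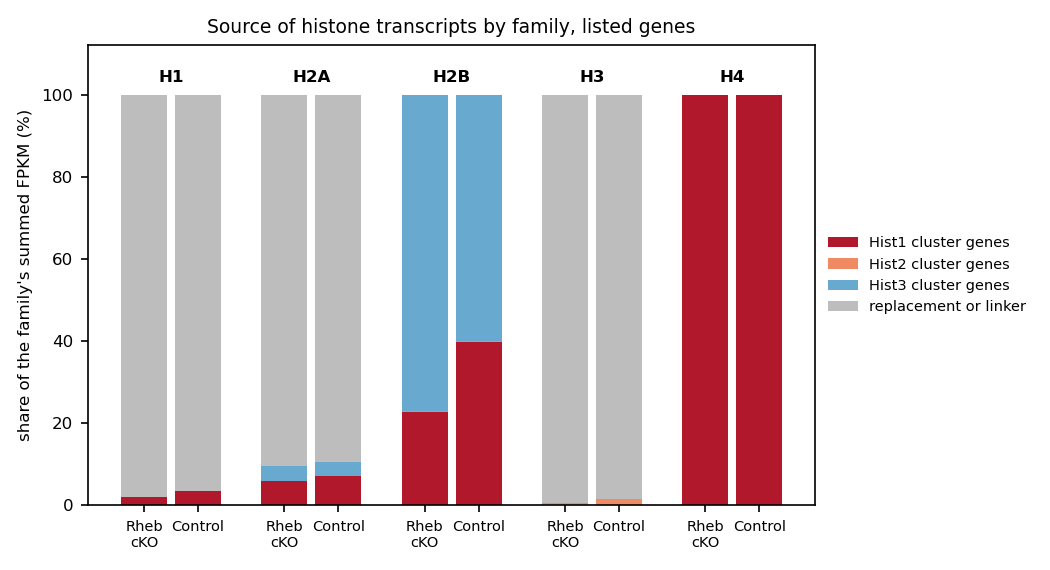
Share of each histone family's summed FPKM (percent, listed genes) that comes from the Hist1, Hist2 and Hist3 clusters and from replacement or linker genes, with Rheb cKO left of Control in each pair. Hist1h2bc accounts for most of the Hist1 part of H2B, at 22.4% of the family in Rheb cKO and 39.1% in Control. The Hist1 part of H2A is the pseudogene Hist1h2al.

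Cyclin and kinase genes had 0 calls by Cuffdiff among 9, beside 8.72% of all listed genes. At an unadjusted p under 0.05, 3 were lower and 0 higher, beside 9.73% and 11.5% of all genes. Ccnd1, the cyclin D gene induced by growth signals, had 9.88 FPKM in Rheb cKO and 14.7 FPKM in Control, just short of the threshold (log2 fold change -0.57, q = 0.0551, Cuffdiff, in the authors' deposited table). Ccnd2 had 5.63 FPKM in Rheb cKO and 6.05 FPKM in Control (-0.10, q = 0.766, Cuffdiff, in the authors' deposited table). Ccnd3 had 14.3 FPKM in Rheb cKO and 14.8 FPKM in Control (-0.05, q = 0.956, Cuffdiff, in the authors' deposited table). The levels of Ccnd3 and Ccnd1 stood further apart in Rheb cKO than in Control, with a Ccnd3 to Ccnd1 ratio of 1.45 in Rheb cKO and 1.01 in Control. Ccndbp1 falls under the rule by its symbol and encodes a protein that binds cyclin D, not a cyclin. Its level was 38.8 FPKM in Rheb cKO and 34.5 FPKM in Control (0.17, q = 0.532, Cuffdiff, in the authors' deposited table).

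Ccne1, the cyclin of entry into S phase, had 6.11 FPKM in Rheb cKO and 8.30 FPKM in Control (log2 fold change -0.44, q = 0.0771, Cuffdiff, in the authors' deposited table). Ccna2, the cyclin of S phase and early mitosis, had 2.02 FPKM in Rheb cKO and 2.22 FPKM in Control (-0.13, q = 0.898, Cuffdiff, in the authors' deposited table). Ccna1, a cyclin known mainly from the testis, was at 0.718 FPKM in Rheb cKO and 0.712 FPKM in Control, and the sign of its fold turned when the median of all genes was subtracted. The kinase genes differed in level by a large factor. Cdk4, the partner of D cyclins, had 111 FPKM in Rheb cKO and 124 FPKM in Control (-0.17, q = 0.749, Cuffdiff, in the authors' deposited table). Cdk1, the kinase of mitosis, had 0.723 FPKM in Rheb cKO and 1.30 FPKM in Control (-0.85, unadjusted p = 0.0401, q = 0.206, Cuffdiff, in the authors' deposited table). Cdk4 exons overlap those of Tspan31 on the other strand, and Ccna2 exons those of Exosc9.

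MCM subunit genes had 0 calls by Cuffdiff, beside 8.72% of all listed genes, and a median log2 fold change of -0.30. At an unadjusted p under 0.05, 2 of 6 were lower and 0 higher, beside 9.73% and 11.5% of all genes. Mcm3 had 1.69 FPKM in Rheb cKO and 2.91 FPKM in Control (-0.79, q = 0.233), and Mcm2 had 1.11 FPKM in Rheb cKO and 1.72 FPKM in Control (-0.64, q = 0.0960), in the authors' deposited table (Cuffdiff). Mcm5 (-0.44), Mcm6 (-0.16) and Mcm4 (-0.11) also had folds below 0 in the authors' deposited table, with levels from 1.08 to 1.79 FPKM in Rheb cKO and from 1.46 to 2.00 FPKM in Control. Mcm7 stood apart from the other subunits of the same ring. It had 8.66 FPKM in Rheb cKO and 6.47 FPKM in Control (0.42, q = 0.633, Cuffdiff, in the authors' deposited table). Its exons overlap those of Ap4m1 and Cops6 on the other strand and hold the miRNA genes Mir25 and Mir93, and the strand setting of the authors' counting is not given in the sources used here.

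Of the DNA synthesis and proliferation genes named by the rule 4 were listed, without Mki67. Among these 4, Top2a passed the test and was lower, beside 4.58% of all listed genes. Rrm1 was at an unadjusted p under 0.05 only, and higher, beside 11.5% of all genes. Top2a, which untangles sister DNA molecules before mitosis and is transcribed in dividing cells, had 1.09 FPKM in Rheb cKO and 3.67 FPKM in Control (log2 fold change -1.75, q = 0.00406, Cuffdiff, in the authors' deposited table), leaving 29.8% of the Control level. Pcna, the clamp that holds DNA polymerase on its template and that also serves DNA repair, had 20.3 FPKM in Rheb cKO and 17.9 FPKM in Control (0.18, q = 0.526, Cuffdiff, in the authors' deposited table). The large subunit gene of ribonucleotide reductase, Rrm1, had 2.21 FPKM in Rheb cKO and 1.68 FPKM in Control (0.40, unadjusted p = 0.0305, q = 0.175, Cuffdiff, in the authors' deposited table). Rrm2, its small subunit gene, had 0.776 FPKM in Rheb cKO and 0.552 FPKM in Control (0.49, q = 0.439, Cuffdiff, in the authors' deposited table). Top2a thus fell while the folds of Pcna, Rrm1 and Rrm2 lay above 0 and did not pass the test.

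Promoters of 3 genes that fell, and of Hist3h2ba for contrast, are shown from 250 bases before to 50 bases after the start site, as RefSeq gives them on GRCm38.p6; capitals mark matches, on either strand, to the TATA box letters TATAAA, the CCAAT box letters CCAAT, the cell cycle promoter letters TTTGAA and the E2F letters TTTCGCG or TTTGGCG.
Top2a promoter, chr11:99024140-99024439, minus strand: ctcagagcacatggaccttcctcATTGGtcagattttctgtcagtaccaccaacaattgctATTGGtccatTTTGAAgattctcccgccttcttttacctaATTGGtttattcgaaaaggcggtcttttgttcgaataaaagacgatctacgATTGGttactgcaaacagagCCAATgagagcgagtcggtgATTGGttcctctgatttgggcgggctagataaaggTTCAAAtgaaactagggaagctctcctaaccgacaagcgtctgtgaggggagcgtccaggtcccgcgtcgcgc
Hist1h1c promoter, chr13:23738557-23738856, plus strand: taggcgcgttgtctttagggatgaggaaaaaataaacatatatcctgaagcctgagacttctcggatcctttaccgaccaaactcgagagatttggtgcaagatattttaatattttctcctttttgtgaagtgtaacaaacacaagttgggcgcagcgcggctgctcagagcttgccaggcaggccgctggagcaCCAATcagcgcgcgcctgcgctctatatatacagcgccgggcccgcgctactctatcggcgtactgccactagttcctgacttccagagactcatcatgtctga
Hist1h4i promoter, chr13:22041313-22041612, minus strand: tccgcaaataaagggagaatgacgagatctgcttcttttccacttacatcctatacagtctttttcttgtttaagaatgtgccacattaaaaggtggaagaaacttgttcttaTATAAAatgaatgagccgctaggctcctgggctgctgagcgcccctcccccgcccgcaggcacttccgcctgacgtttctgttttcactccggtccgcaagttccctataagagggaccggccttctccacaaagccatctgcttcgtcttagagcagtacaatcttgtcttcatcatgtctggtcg
Hist3h2ba promoter, chr11:58948661-58948960, plus strand: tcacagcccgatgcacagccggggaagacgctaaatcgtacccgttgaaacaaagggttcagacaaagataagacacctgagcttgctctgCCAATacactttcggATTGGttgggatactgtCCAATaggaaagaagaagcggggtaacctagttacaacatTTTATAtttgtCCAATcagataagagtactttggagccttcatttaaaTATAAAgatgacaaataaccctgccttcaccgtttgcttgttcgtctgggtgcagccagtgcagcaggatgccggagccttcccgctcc
The Top2a promoter holds 6 matches to CCAAT, from 227 to 58 bases before the start site, and 2 to TTTGAA, a letter pattern known from cell cycle promoters. Hist3h2ba holds 4 matches to CCAAT and 2 to TATAAA, Hist1h1c 1 to CCAAT, and Hist1h4i 1 to TATAAA. Of the 41 members, 33 were matched to a RefSeq promoter. CCAAT occurred in 24 of them, 72.7%, beside 37.4% of the 32851 promoters of that length in the RefSeq table. The share was 7 of 9 for clustered and 6 of 9 for replacement and linker histone genes. These counts include Hist2h3c1, Hist2h3c2 and H2afy2, whose match lies 29, 14 and 31 bases after the start site. Any link between such matches and the folds was not tested. TTTCGCG or TTTGGCG, letters of E2F sites that can overlap each other on opposite strands, occurred in 4 of 5 MCM promoters and in 0 of 9 clustered histone promoters, beside 2.37% of all promoters. TTTGAA occurred in 21.2% of the members' promoters and 17.9% of all, and TATAAA in 12.1% and 13.6%. A match is a stretch of letters and says nothing of binding.

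Across 5 further lists of the cell cycle and of histone supply, 8 of 109 genes were called, beside 8.72% of all listed genes. Of 17 listed mitosis genes 2 fell and 0 rose (median log2 fold change -0.10), or 11.8% lower beside 4.58% of all genes. Anln, an actin-binding protein of the cleavage furrow that myelinating glia also express, had 0.601 FPKM in Rheb cKO and 2.02 FPKM in Control (-1.75, q = 0.00161, Cuffdiff, in the authors' deposited table). Nuf2, a kinetochore protein gene, had 0.562 FPKM in Rheb cKO and 1.14 FPKM in Control (-1.02, q = 0.0288, Cuffdiff, in the authors' deposited table). Of 35 replication genes 1 rose and 1 fell (median 0.14): Prim1, a primase subunit (0.68), and Gmnn, the licensing inhibitor geminin (-0.69), each with q = 0.0392 (Cuffdiff, in the authors' deposited table). Of 24 cell cycle regulators 1 rose and 1 fell (median -0.08): Cdkn1a, an inhibitor of cyclin-dependent kinases (0.39, q = 0.0452), and Cdkn2c, an inhibitor of Cdk4 and Cdk6 (-0.99, q = 0.0317), in the authors' deposited table (Cuffdiff).

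Genes that supply histones had medians above 0. Of 20 histone chaperone genes 2 rose and 0 fell, beside 4.14% higher and 4.58% lower of all listed genes. Their median log2 fold change was 0.19, and 17 had a fold above 0, beside 54.6% of all genes. The 2 were Anp32e, which removes the histone of H2afz from chromatin (0.48, q = 0.0370), and Supt16, a FACT subunit (0.37, q = 0.0474), in the authors' deposited table (Cuffdiff). Of 13 genes that process histone mRNA 0 were called by Cuffdiff, beside 8.72% of all listed genes (median 0.11). At an unadjusted p under 0.05, 1 was higher, beside 11.5% of all genes. The most abundant of these were Snrpb, with 171 FPKM in Rheb cKO and 135 FPKM in Control (0.34, q = 0.0622), and Snrpd3 (0.12, q = 0.737), in the authors' deposited table (Cuffdiff).

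Marker genes of other cell types moved in the same comparison. Of all listed genes 4.58% were called lower and 4.14% higher by Cuffdiff. At an unadjusted p under 0.05, 9.73% were lower and 11.5% higher. All 15 oligodendrocyte markers fell, with a summed level of 1377 FPKM in Rheb cKO and 4005 FPKM in Control and a median log2 fold change of -1.66. The 6 with the lowest folds were Trf, Ppp1r14a, Gjb1, Mog, Ermn and Ugt8a, from -2.89 to -1.71 in the authors' deposited table. Of 12 markers of oligodendrocyte precursors, a dividing cell type of the cortex, 4 fell and 0 rose (Olig1, Bmp4, Gpr17 and Sox10), and the list median was -0.13. The 12 summed to 248 FPKM in Rheb cKO and 381 FPKM in Control, of which Olig1 alone had 120 FPKM in Rheb cKO and 232 FPKM in Control; without Olig1 it was 127 FPKM in Rheb cKO and 149 FPKM in Control. The other markers of the list were not called. Folds were -0.26 for Olig2, -0.25 for Neu4, -0.02 for Matn4, -0.01 for Pdgfra and 0.00 for C1ql1 in the authors' deposited table. Cspg4 had 0.16, Ptprz1 0.33 and Vcan 0.55. Of 12 endothelial and mural markers 6 were listed, and 4 of these fell, Kcnj8, Vtn, Acta2 and Rgs5, all genes of mural cells. The mural marker Pdgfrb (-0.22, q = 0.548) and the only listed endothelial marker, Cldn5 (-0.27, q = 0.648), were not called (Cuffdiff, in the authors' deposited table). The 6 summed to 39.7 FPKM in Rheb cKO and 74.1 FPKM in Control, and without Vtn to 15.3 FPKM in Rheb cKO and 22.6 FPKM in Control. Astrocyte markers summed to 1889 FPKM in Rheb cKO and 2429 FPKM in Control, with 5 of 12 lower and 2 higher. Among them Ntsr2, S100b, Mfge8, Aqp4 and Aldoc fell, and Gfap and Fgfr3 rose. Aldoc alone had 1142 FPKM in Rheb cKO and 1554 FPKM in Control, so it weighs most in the astrocyte sums. Of 10 microglia markers 0 were called by Cuffdiff and 3 were higher at an unadjusted p under 0.05, with sums of 40.1 FPKM in Rheb cKO and 32.1 FPKM in Control. The most abundant were Cd68 (0.69 on the log2 scale, q = 0.0933) and Aif1 (-0.10, q = 0.904) in the authors' deposited table (Cuffdiff). Of 8 stem cell and neuroblast genes 1, Dcx, rose, with sums of 66.9 FPKM in Rheb cKO and 67.7 FPKM in Control. The part of these cell types in the lower levels of Top2a and the Hist1 genes was not tested. The labels name neurons as the cell type, and all 16 neuronal markers were listed, with sums of 4779 FPKM in Rheb cKO and 4493 FPKM in Control (Celf4 higher, Nefm and Nefh lower), beside the glial and vascular markers above.

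**Figure D5:**
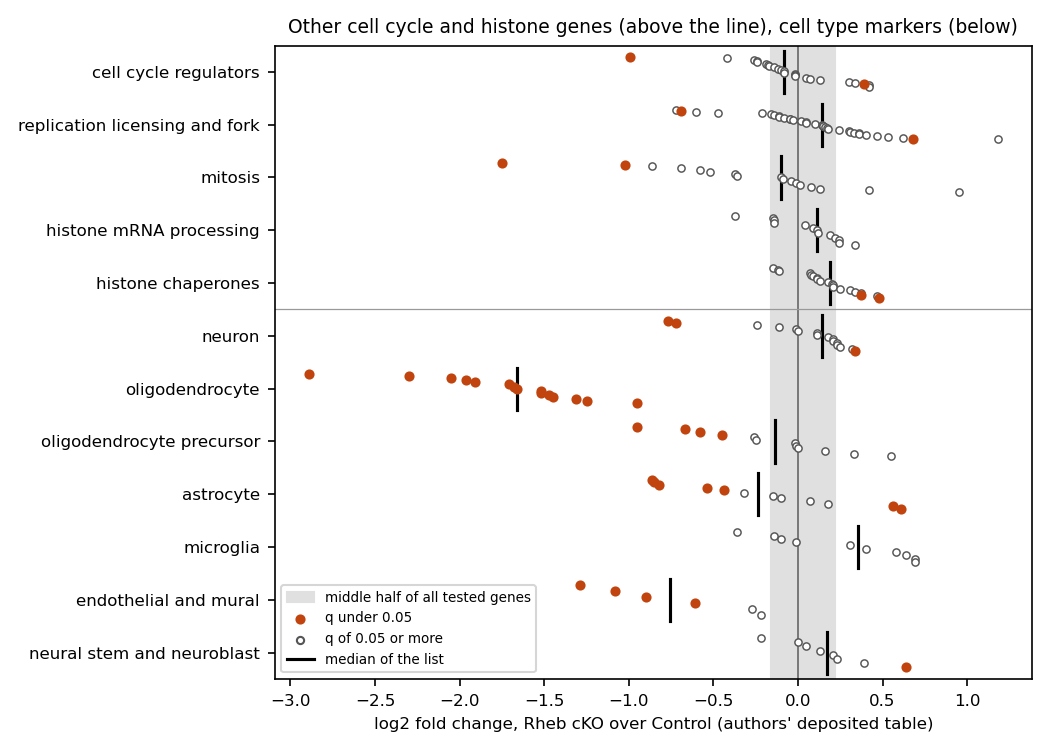
Deposited log2 fold changes, Rheb cKO over Control, of the listed members of 5 further cell cycle and histone lists (above the line) and 7 lists of cell type markers (below it); filled points have a q under 0.05, bars are list medians and the grey band runs between the quartiles of all genes. Oligodendrocyte markers lie between -2.89 and -0.95, while histone chaperone genes run from -0.15 to 0.48.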

How the data were processed

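Ribosome-bound RNA of 6 cortex libraries, 3 Rheb cKO and 3 Control, was sequenced; groups follow the sample titles. Tools named in the submitters' processing notes are Cuffdiff 2.2.1 and TopHat2 2.1.0, with the build mm10, without any settings. The deposited FPKM come, per the file headers, as a single value for each gene in each group. The authors' log2 values have Rheb cKO on top, and equal the log2 of the FPKM ratio to within 1.23e-05. A score per gene (the deposited test statistic) was not used; the authors' p-values and q-values were, with a smallest p of 5.00e-05. Of 2 deposited tables the longer, with 13192 genes, was used, and 1 empty line was skipped. Medians leave out genes listed at 0 in Rheb cKO (5) or Control (12), none of them members. Depth per library is unknown, and if libraries are not separate animals, q-values measure only the spread between libraries.

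Members were taken by symbol, in 7 subgroups. Members and the 12 further lists (227 genes) were chosen with earlier results of these data known. Both FPKM, fold and q are given for Rheb, called members, members at an unadjusted p under 0.05, the 2 most abundant of each subgroup, and its highest and lowest folds at a mean FPKM of 1 or more; other members get fewer or more values as the text needs. List genes are named where called, up to 6 a list by fold, or the 2 most abundant where none was; markers named beside these were picked after their values were seen. No further test was run. GENCODE M21 (mm10) gave transcripts for all 41 members, of which 19 had the same span in the authors' table. Shared sequence is the percent of 50-base stretches found in transcripts of another gene, on either strand. Counting of calls and the hairpin search were tested on simulated data. Software was matplotlib 3.10.9, scipy 1.17.1, pandas 2.3.3 and numpy 2.4.6 under Python 3.11.15. Alternatives were a q under 0.01, an unadjusted p under 0.05, a floor of 1 on the mean FPKM, 1 added to each FPKM, and subtraction of the median of all genes.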

Additional observations from a re-analysis of the deposited data

How the results depend on the processing

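At a q under 0.01, Cuffdiff left 4 of the 5 calls, all lower, and 4 of the 5 had a mean FPKM of at least 1; at an unadjusted p under 0.05 there were 12, of which 10 were lower and 2 higher. With 1 added to each FPKM, which shrinks the folds of low genes, medians were -0.49 for clustered histone genes, -0.29 for the cyclin-dependent kinases, -0.17 for the MCM subunits and 0.18 for the DNA synthesis and proliferation genes. Among genes whose mean FPKM reached 1, the median was -0.29 for cyclins A, B and E and 0.18 for the DNA synthesis and proliferation genes, since 1 low gene leaves each subgroup. The other subgroup medians moved by at most 0.1 on the log2 scale under these settings, under centring on the median of all genes, and without Hist1h2al or Ccndbp1, 2 alternatives chosen after seeing the data. No called member changed sign; centring turned the sign of 1 uncalled member, Ccna1. Folds of 13 members moved by more than 0.1 when 1 was added. No paired analysis was possible because the tables hold 1 pooled value per group, and for the same reason no library could be left out. Depth cannot be set against any value, so how far counting error limits genes near 1 FPKM is unknown.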
